A study of Mus musculus with 12 samples.

Results

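The keratin genes of a retinal pigment epithelium (RPE) data set are described here in 12 libraries, 1 from each eye of 6 male WT C57BL/6J mice, 3 aged 22 months (22m) and 3 aged 5 months (5m). Members were chosen by gene symbol, Krt followed by a number and at most 1 letter, and by having at least 1 raw count over the 12 libraries. Of 54 such genes in the table of 27179 genes, 43 were members and 11 had 0 counts. Both ages were of the same genotype, and the labels name no transgene and no treatment. RPE cells were shaken from the eyecup with trypsin after the cornea, lens and retina had been taken off, and no sort is described, so the suspension can hold other cells. Mice 1 and 2 of each age made up batch 1 and mouse 3 of each age batch 2, as labelled.

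Keratins form the intermediate filaments of epithelial cells from paired type I and type II proteins, and which pair a cell makes marks its kind of epithelium. Krt8 and Krt18 are the pair of simple, single-layered epithelia, to which the RPE belongs. Krt5 with Krt14 or Krt15 marks the basal layer of stratified epithelia, including the limbus and conjunctiva of the ocular surface. Krt12 is the type I keratin of the corneal epithelium, Krt4 and Krt13 are the pair of wet stratified linings such as the conjunctiva, and Krt6a and Krt6b are made in stratified epithelia under stress and turnover. Krt1 and Krt10 are known from the upper layers of the epidermis, and the hair keratins from hair follicles. By these classes the 43 members held 5 simple, 15 stratified, 1 corneal (Krt12), 14 hair and 8 unclassed keratins. The type I cluster on chromosome 11 held 20 members and the type II cluster on chromosome 15, where type I Krt18 also lies, held 23. In RefSeq coordinates of GRCm38.p6, Krt15 (Entrez ID 16665) runs from 100131759 to 100135949 and Krt12 (268482) from 99415664 to 99422593 on chromosome 11, and Krt6b (16688) from 101676023 to 101680293, Krt6a (16687) from 101689928 to 101694305 and Krt5 (110308) from 101707069 to 101712905 on chromosome 15, all on the minus strand.

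In RPE suspensions of 22m mice, keratins of stratified and corneal epithelium stood higher than in those of 5m mice, whereas the sum of the simple keratins, mostly the RPE's own pair, did not. Of the 13 keratins that could be tested, Krt15, Krt6a, Krt12 and Krt6b (4) were called higher and 0 lower, where 5.41% of 14219 genes were called higher and 2.26% lower. All 4 entered the test through their 22m values, so this count is a description and not support. Summed over the 16 stratified and corneal members, the level was 88.7 ± 37.6 CPM (raw counts scaled to the TMM-adjusted library size) at 22m and 16.5 ± 6.24 CPM at 5m (SD, n = 3 mice each), a ratio of 5.38. Simple keratins summed to 277 ± 216 CPM at 22m and 352 ± 175 CPM at 5m. Much of the difference sat in the left eye of 22m mouse 1 and the right eye of 22m mouse 3: with both libraries left out, the ratio was 2.08.

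The start sites of 4 keratins are shown because these genes carry the contrast: Krt5 and Krt12 for the surface epithelium and the pair Krt8 and Krt18 for the RPE. Each line gives 150 bases before and 50 bases after the RefSeq start, 5′ to 3′ on the gene's strand, in GRCm38.p6. Capitals mark the letters TATAAA on either strand.
Krt5 (chr15:101712856-101713055, minus strand): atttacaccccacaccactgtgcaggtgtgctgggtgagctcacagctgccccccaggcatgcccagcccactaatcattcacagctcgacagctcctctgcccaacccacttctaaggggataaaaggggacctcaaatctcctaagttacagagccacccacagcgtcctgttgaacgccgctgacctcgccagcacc
Krt12 (chr11:99422210-99422409, minus strand): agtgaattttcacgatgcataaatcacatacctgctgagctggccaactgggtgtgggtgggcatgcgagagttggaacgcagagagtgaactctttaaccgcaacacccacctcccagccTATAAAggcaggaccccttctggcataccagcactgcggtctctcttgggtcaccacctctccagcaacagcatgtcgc
Krt8 (chr15:102004293-102004492, minus strand): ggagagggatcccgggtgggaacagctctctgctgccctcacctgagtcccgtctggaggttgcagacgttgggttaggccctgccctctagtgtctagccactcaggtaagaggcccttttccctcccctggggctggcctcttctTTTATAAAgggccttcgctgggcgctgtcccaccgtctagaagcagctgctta
Krt18 (chr15:102028066-102028265, plus strand): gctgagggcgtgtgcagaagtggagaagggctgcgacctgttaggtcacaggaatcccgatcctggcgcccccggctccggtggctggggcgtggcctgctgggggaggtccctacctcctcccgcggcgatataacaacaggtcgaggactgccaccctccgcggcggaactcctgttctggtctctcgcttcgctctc
The words searched on both strands (4) were TATAAA of the TATA box, the GC box written GGGCGG, an AP-1 site written TGANTCA and the CAAT box word CCAAT. No match of one overlapped a match of another. TATAAA was found in the Krt12 window, 29 bases before the start, and in the Krt8 window on both strands at the start itself, against 8.91% of 32851 windows of the same length. The GC box word was in none of the 4 windows, against 32.2% of all windows, and likewise the AP-1 word, against 5.35%, and the CAAT box word, against 28.6%. The Krt18 window held 16 CpG dinucleotides and the Krt5, Krt12 and Krt8 windows 5, 6 and 6, beside a median of 5 over all windows. RefSeq windows were on hand for 28 of the 43 members, and for 7 of the 13 tested. The first 30 bases after the Krt5 start were not in the GENCODE M21 transcripts of that gene, so its start is less sure. The Krt12 start lies inside the RefSeq span of the gene given above, not at its outer end.

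Libraries held 9171131 to 12324029 counts at 22m and 9758665 to 13217909 at 5m, so that 1 count is worth about 0.1 CPM and values below about 0.3 CPM rest on 3 counts or fewer. RPE identity was checked on 19 genes of the RPE list (Rpe65, Rlbp1 and others), which summed to 12487 to 51576 CPM in 22m libraries and 31785 to 58555 CPM in 5m libraries. Rod photoreceptor genes (19 genes, Gnat1 and others) summed to 2456 to 20343 CPM at 22m and 2185 to 5628 CPM at 5m. Both lists move with age and their part in the keratin results was not tested. In bulk RNA, fewer cells of a type and less RNA per cell cannot be told apart. Of 14219 genes tested over mice, 5.41% were called higher and 2.26% lower at 22m, calls that needed a log2 fold change past 0.25 in size and an adjusted p below 0.05.

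Of the 43 members, 13 passed the filter on low values, for which the deposited normalized values had to average 20 or more over the 12 libraries. The threshold fell between Krt13 (mean 21.5) and Krt19 (mean 16.4). All 13 reached 20 in the 22m libraries alone and 6 reached it in the 5m libraries alone (Krt18, Krt8, Krt23, Krt10, Krt222 and Krt80). The other 7, Krt5, Krt15, Krt12, Krt6a, Krt6b, Krt4 and Krt13, entered the test through their 22m values, so their count and direction are a description and not support. Members at the edge of the selection were Krt16, Krt35, Krt86 and Krt88, with 1 raw count each. Of the 11 keratins with 0 counts, 10 were hair keratins and the other was Krt9, the keratin of palm and sole epidermis.

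**Figure D1:**
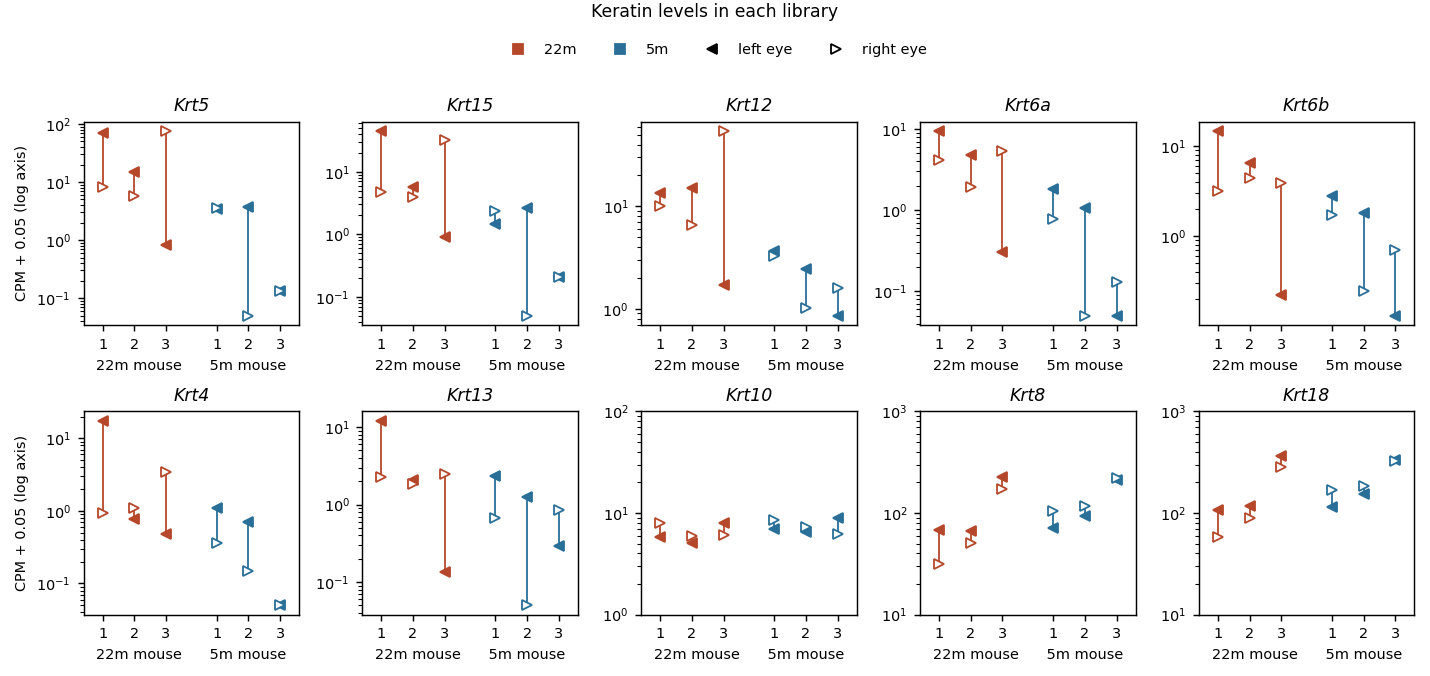
Level of 10 keratins in each library, as CPM + 0.05 on a log axis whose range differs between panels. Filled triangles are left eyes, open triangles right eyes and a line joins the eyes of 1 mouse, with 22m mice to the left of 5m mice. Krt5 stood at 75.2 CPM in the right eye and 0.777 CPM in the left eye of 22m mouse 3, and Krt8 differed between the eyes of 1 mouse by at most 2.15-fold.

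Krt5, the type II keratin of basal cells, had the largest log2 fold change of all 14219 genes. It stood at 69.3 and 8.10 CPM in the left and right eyes of 22m mouse 1, 14.8 and 5.77 CPM in those of 22m mouse 2 and 0.777 and 75.2 CPM in those of 22m mouse 3. In 5m mice it was at 3.43 and 3.51 CPM (mouse 1), 3.70 and 0 CPM (mouse 2) and 0.0807 and 0.0805 CPM (mouse 3). As mouse sums the ages did not overlap, yet the left eye of 22m mouse 3, with 9 counts, lay below 3 of the 6 libraries from 5m mice. The log2 fold change of Krt5 was 4.13 (SE 0.94, adjusted p = 0.0545 by the quasi-likelihood test of edgeR, Benjamini-Hochberg), which missed the threshold.

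Krt15, a type I keratin of basal and limbal cells, was highest in the same 2 libraries as Krt5. It was at 44.7 and 4.68 CPM in 22m mouse 1, 5.76 and 3.88 CPM in 22m mouse 2 and 0.864 and 32.1 CPM in 22m mouse 3 (left, then right eye). In 5m mice it was at 1.41 and 2.27 CPM, 2.59 and 0 CPM, and 0.161 and 0.161 CPM. Krt15 was called higher, at a log2 fold change of 3.94 (SE 0.85, edgeR adjusted p = 0.0497), the second largest of all genes. Where both genes had counts, Krt15 had 0.389 to 2 counts for each count of Krt5 over 11 libraries. The upper end rests on 2 counts against 1 in each eye of 5m mouse 3, and elsewhere the ratio was at most 1.11.

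Krt14, the usual type I partner of Krt5, was rarer and did not pass the filter. It had 127 counts in 22m libraries, of which 70 were in the left eye of mouse 1 and 46 in the right eye of mouse 3, and 3 counts in 5m libraries, all in the right eye of mouse 1. As mouse sums it stood at 3.14, 0.318 and 2.08 CPM at 22m, against 0.142, 0 and 0 CPM at 5m.

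Krt12, the corneal keratin, stood at 13.4 and 9.99 CPM in 22m mouse 1, 14.96 and 6.50 CPM in 22m mouse 2 and 1.64 and 54.1 CPM in 22m mouse 3, left eye then right. Its 5m levels were 3.60 and 3.20 CPM, 2.40 and 0.968 CPM, and 0.807 and 1.53 CPM. Of the 6 libraries at 22m, 5 stood above every 5m library. The exception was the left eye of 22m mouse 3. The mean was 16.8 ± 9.27 CPM at 22m and 2.10 ± 1.17 CPM at 5m (SD, n = 3 mice each), and Krt12 was called higher at a log2 fold change of 2.90 (SE 0.53, edgeR adjusted p = 0.0388). An antisense gene, A830036E02Rik, overlaps Krt12 and shares 35.6% of its read-length words of 75 bases in GENCODE M21. Since the strand setting of the counting is not given in the sources used here, reads of the pair cannot be told apart.

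Krt6a and Krt6b, neighbouring type II keratins on chromosome 15, were both called higher. Krt6a was at 9.39 and 4.05, 4.80 and 1.89, and 0.259 and 5.28 CPM in 22m mice 1, 2 and 3 (left, then right eye), against 1.76 and 0.723, 1.02 and 0, and 0 and 0.0805 CPM in 5m mice 1, 2 and 3. Krt6b was at 14.6 and 3.15, 6.48 and 4.40, and 0.173 and 3.87 CPM in 22m mice, against 2.73 and 1.65, 1.76 and 0.194, and 0.0807 and 0.644 CPM in 5m mice. Mouse sums of Krt6a did not overlap between ages, and those of Krt6b did. Log2 fold changes were 2.99 for Krt6a (SE 0.61, edgeR adjusted p = 0.0452) and 2.23 for Krt6b (SE 0.37, edgeR adjusted p = 0.0328). Krt6b shares 36.9% of its 75-base words with Krt6a, and Krt6a 33.0% with Krt6b. With all other genes, Krt5 among them, Krt6a shares 51.1% and Krt6b 39.6%. How reads were split among these genes is therefore uncertain.

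Krt4 and Krt13, the conjunctival pair, were not called. Krt4 was at 17.5 and 0.900, 0.720 and 1.05, and 0.432 and 3.43 CPM in 22m mice 1, 2 and 3, against 1.06 and 0.310, 0.647 and 0.0968, and 0 and 0 CPM in 5m mice. The left eye of 22m mouse 1 alone held 203 of the 276 counts of Krt4 at 22m. Krt13 was at 12.1 and 2.25, 2.00 and 1.78, and 0.0864 and 2.46 CPM in 22m mice, against 2.29 and 0.620, 1.20 and 0, and 0.242 and 0.805 CPM in 5m mice. The log2 fold changes were 3.60 for Krt4 (SE 1.08, edgeR adjusted p = 0.0942) and 1.87 for Krt13 (SE 0.63, edgeR adjusted p = 0.114).

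Krt10, of the upper epidermis, varied little between libraries. Its lowest, median and highest levels were 4.96, 5.93 and 7.92 CPM in 22m libraries, against 6.12, 7.10 and 8.88 CPM in 5m libraries. Krt10 had a log2 fold change of -0.22 (SE 0.15, edgeR adjusted p = 0.353). Its usual partner Krt1, which did not pass the filter, had 67 counts at 22m and 52 counts at 5m and was present in all 12 libraries. With Krt1 and Krt10 left out of the stratified and corneal sum, the ratio of 22m to 5m was 9.74, and 3.14 without the left eye of 22m mouse 1 and the right eye of 22m mouse 3.

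**Figure D2:**
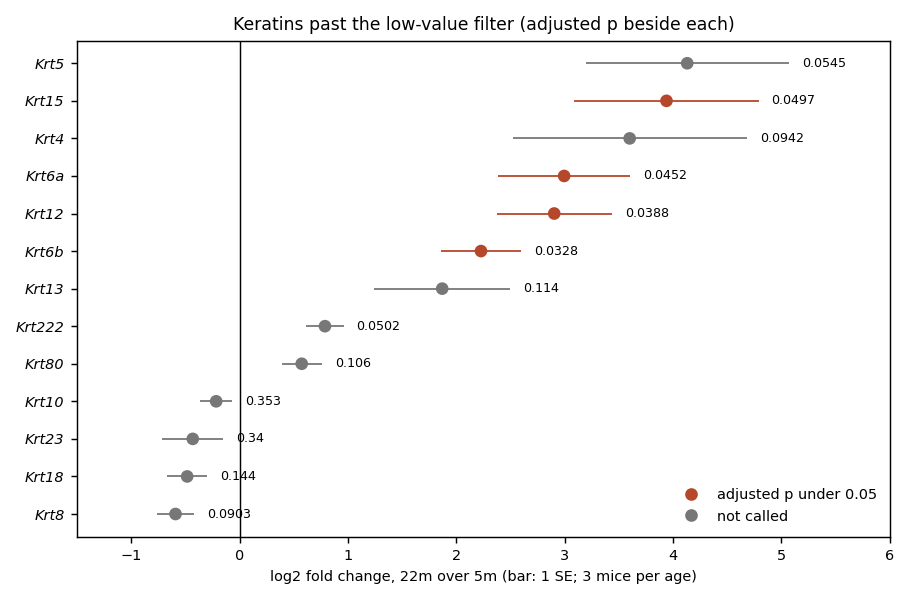
Log2 fold change of 22m over 5m for the 13 keratins past the filter, with bars of 1 SE and the adjusted p beside each, from 3 mice per age. Krt15, Krt6a, Krt12 and Krt6b were called, and Krt5, with the largest value of 4.13, missed the threshold at an adjusted p of 0.0545.

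Of the 13 keratins tested, 4 were called higher (Krt15, Krt6a, Krt12 and Krt6b) and 0 lower, beside 5.41% and 2.26% of all genes. Without adjustment, 9 were higher and 2 lower at a p under 0.05, beside 16.5% and 14.6% of all genes. DESeq2 on the same mouse sums called 8 higher and 1, Krt8, lower, beside 10.6% and 6.07% of all genes. With each eye as a sample in voom, Krt12 (limma adjusted p = 0.0976), Krt15 (adjusted p = 0.140) and Krt6b (adjusted p = 0.0706) were no longer called, and Krt6a, Krt222 and Krt80 were called higher and Krt8 lower. Mouse sums of the ages did not overlap for 6 of the 13 (Krt5, Krt15, Krt12, Krt6a, Krt4 and Krt222), against 12.8% of all genes, and single libraries overlapped for all 13. Of those 6, all but Krt222 entered the test through their 22m values, as did the 4 called by edgeR, so neither count is support. The calls rest on few residual degrees of freedom (3). Leaving out 22m mouse 1, 22m mouse 2 or 5m mouse 2 ended every keratin call, whereas leaving out 5m mouse 1 kept Krt12 and Krt6b. In those first 3 fits 6, 8 and 6 keratins still stood higher with p below 0.05 before adjustment, beside 1505, 1816 and 1615 of 14219 genes. Over all genes those first 3 fits called 4 higher and 0 lower, 1 and 0, and 78 and 26, while the log2 fold changes of Krt15 in them were 3.31, 4.66 and 4.03 and those of Krt12 3.13, 3.15 and 2.84. Without 22m mouse 3 or 5m mouse 3, when only batch 1 informs the age term, 4 were called higher (Krt12, Krt5, Krt6a and Krt6b) and 2 lower (Krt8 and Krt18). Paired by mouse number, as a replicate block, the fit called Krt13 (adjusted p = 0.037), Krt6a (adjusted p = 0.0442) and Krt6b (adjusted p = 0.017), and no longer Krt12 (adjusted p = 0.0526) or Krt15 (adjusted p = 0.0575), all by edgeR. Without a batch term edgeR called 0 of 13 keratins, and over all genes 2 were called higher and 0 lower. At an unadjusted p under 0.05, 8 keratins were higher and 0 lower in this fit, beside 607 and 409 of 14219 genes.

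**Figure D3:**
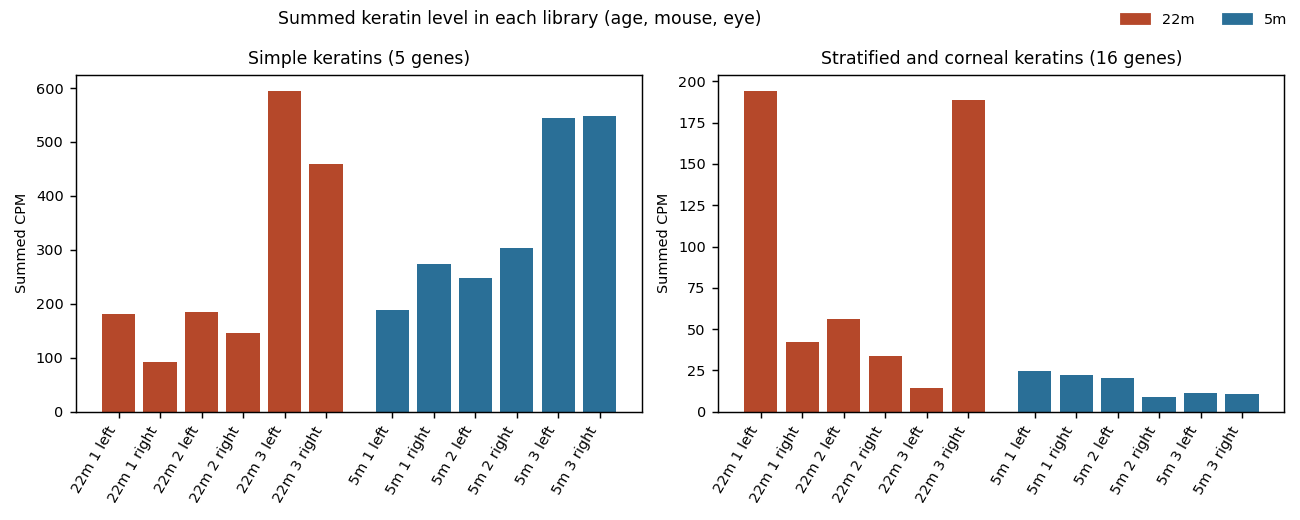
Summed CPM of the 5 simple keratins (left) and of the 16 stratified and corneal keratins (right) in each library, labelled by age, mouse and eye. The stratified and corneal sum reached 194 CPM in the left eye of 22m mouse 1 and 189 CPM in the right eye of 22m mouse 3, and 24.4 CPM at most at 5m.

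The eyes of 22m mice 1 and 3 differed more than those of any 5m mouse. Stratified and corneal keratins summed to 194 and 42.3 CPM in the left and right eyes of 22m mouse 1, 56.2 and 33.8 CPM in those of 22m mouse 2 and 14.3 and 189 CPM in those of 22m mouse 3. In 5m mice the sums were 24.4 and 22.4 CPM, 20.5 and 8.81 CPM, and 11.5 and 10.9 CPM. The highest eye was therefore a left eye in mouse 1 and a right eye in mouse 3, and of 6 libraries at 22m only the left eye of mouse 3 fell within the 5m range. Between the eyes of 22m mouse 3, Krt5 differed by 96.8-fold, Krt15 by 37.2-fold and Krt12 by 33.0-fold, whereas Krt18 differed by 1.29-fold and Krt8 by 1.32-fold. Within batch 1 the log2 ratio of the sums was 2.11, and within batch 2, with 1 mouse per age, 3.16.

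**Figure D4:**
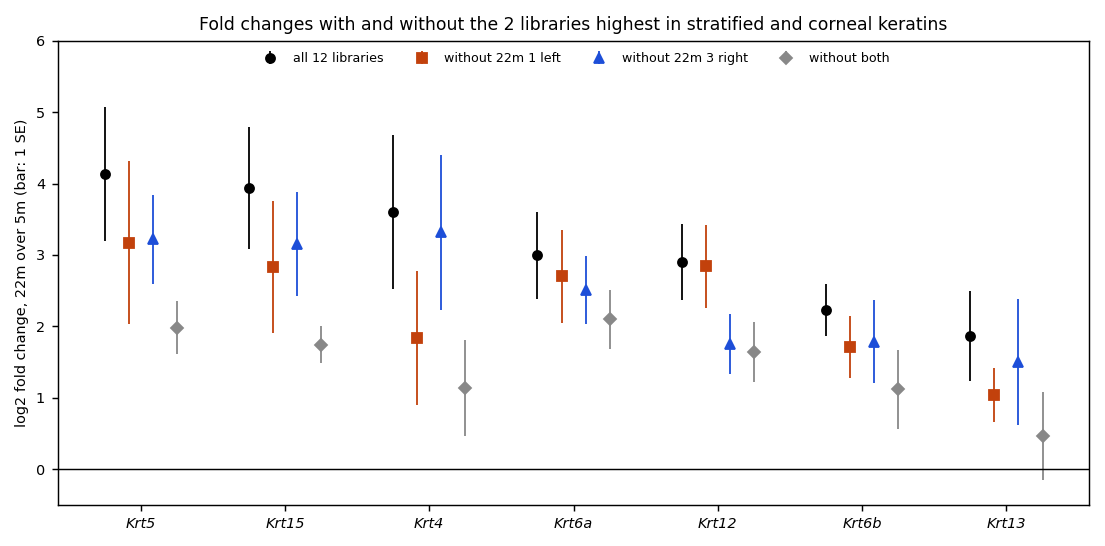
Log2 fold change of 22m over 5m, with bars of 1 SE, for 7 stratified and corneal keratins, from all 12 libraries and without the left eye of 22m mouse 1, the right eye of 22m mouse 3 or both. Every value stayed above 0, and without both libraries they ran from 0.46 for Krt13 to 2.10 for Krt6a. The genes passed the filter on values of all 12 libraries.

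Results were recomputed without these 2 libraries, an alternative added after their values were seen. With 22m mouse 1 taken from its right eye alone, edgeR called 0 of 13 keratins, and over all genes 1 was called higher and 0 lower. At an unadjusted p under 0.05, 7 keratins were higher and 0 lower in this fit, beside 1929 and 1401 of 14219 genes. With 22m mouse 3 taken from its left eye alone, Krt5 (log2 fold change 3.22, edgeR adjusted p = 0.0429) and Krt6a (log2 fold change 2.50, edgeR adjusted p = 0.041) were called. Without both libraries 0 keratins were called by edgeR, and 0 of all genes. At an unadjusted p under 0.05, 5 keratins stood higher and 0 lower, beside 1802 and 1349 of 14219 genes. The fold changes shrank but kept their sign: Krt6a stood at 2.10, Krt5 at 1.98, Krt15 at 1.74, Krt12 at 1.64, Krt4 at 1.13, Krt6b at 1.12 and Krt13 at 0.46 on the log2 scale. These fits kept the genes that passed the filter over all 12 libraries. Without both libraries the mean normalized value was under 20 for Krt6b (16.0), Krt6a (11.5), Krt13 (10.9) and Krt4 (4.44), and 21.5 for Krt15. The kept signs are therefore a description and not support.

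**Figure D5:**
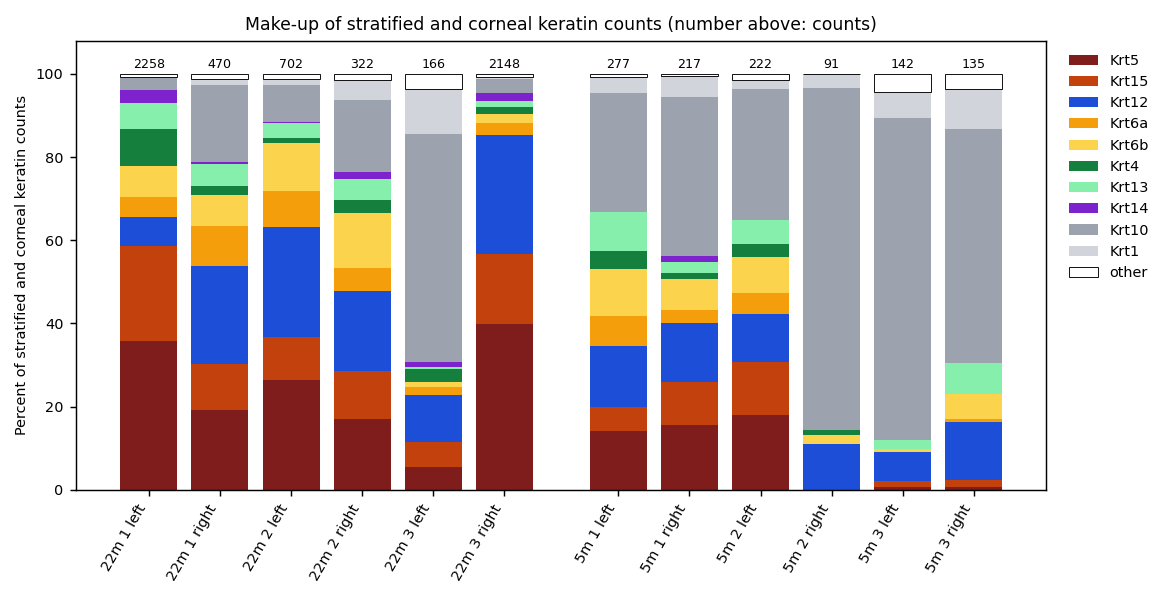
Percent of stratified and corneal keratin counts from each gene, by library, with the number of counts above each bar. Krt5, Krt15 and Krt12 made up most counts in the right eye of 22m mouse 3, and Krt10 made up 82.4% of the 91 counts in the right eye of 5m mouse 2.

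The make-up of these counts differed between the high libraries. Of 2258 counts in the left eye of 22m mouse 1, 35.7% were Krt5, 23.0% Krt15, 8.99% Krt4, 6.91% Krt12 and 6.20% Krt13. Of 2148 counts in the right eye of 22m mouse 3, 39.8% were Krt5, 17.0% Krt15, 28.6% Krt12, 1.82% Krt4 and 1.30% Krt13. The left eye of mouse 1 thus held a larger share of the conjunctival pair and the right eye of mouse 3 a larger share of corneal Krt12. In the right eye of 22m mouse 1 and the left eye of 22m mouse 2, Krt12 took 23.6% and 26.6%. In the left eye of 22m mouse 3 and in both eyes of 5m mouse 3 and the right eye of 5m mouse 2, Krt10 made up 54.8% to 82.4% of 91 to 166 counts.

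Genes known from ocular surface epithelium moved in part with these keratins. Of the 35 listed, 34 had counts (Sprr1b was at 0), 17 were tested, 0 were called higher and 3 lower by edgeR. At an edgeR unadjusted p under 0.05, 5 were higher and 4 lower, beside 16.5% and 14.6% of all genes. Of the 17 tested, 9 had their highest level in the left eye of 22m mouse 1 or the right eye of 22m mouse 3, as had 14.5% of all tested genes. Those libraries were picked after their keratin levels were seen, so this share is a description and not support. Whether these genes passed the filter through their 22m values was not examined. The list summed to 290 to 558 CPM in 22m libraries and 453 to 569 CPM in 5m libraries. As mouse sums the list stood at 361, 360 and 466 CPM at 22m, below the 507, 535 and 481 CPM at 5m, in sum opposite to the stratified and corneal keratins. Gene by gene, 11 of the 17 tested had a positive log2 fold change and the rest a negative one, with a median of 0.55. The list also holds genes with high levels in every library, such as Perp and Aldh3a1, which weigh heavily in its sum. The 3 called lower were Gjb6 (log2 fold change -0.99, SE 0.10, edgeR adjusted p = 0.0195), Cdh1 (log2 fold change -0.74, SE 0.07, edgeR adjusted p = 0.0195) and Gjb2 (log2 fold change -0.74, SE 0.14, edgeR adjusted p = 0.0392). Gjb6 and Gjb2 encode gap junction proteins and Cdh1 encodes E-cadherin.

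Among genes with a narrower link to stratified epithelium, chosen after their values were seen, Dsc3, a desmosomal cadherin of basal layers, had 103 counts in the left eye of 22m mouse 1, 45 in the right eye of 22m mouse 3 and 0 to 9 in each of the other 4 libraries at 22m, against 0 to 7 in the 5m libraries. Dsg3, another desmosomal cadherin, had 35 and 14 counts in those 2 libraries and 0 to 3 in each of the other 10. Trp63, the transcription factor of basal cells, had 32 and 22 counts there and 0 to 17 elsewhere. Scaled to library size, Trp63 stood at 2.76 and 1.94 CPM there and reached 1.78 CPM elsewhere, so it hardly stood apart in the right eye of 22m mouse 3. Others of the list did not follow: the desmosomal cadherin Dsg1a had 80 counts in each left eye of 22m mice 1 and 3, 31 in the right eye of mouse 3 and 46 in the right eye of 5m mouse 1, Fxyd3 was highest in the eyes of 5m mouse 3 (33 and 39 counts), and Klf5 had 406 counts at 22m and 626 at 5m. Calml3, a calmodulin-like gene of stratified epithelia, had a log2 fold change of 2.56 (SE 0.58, edgeR adjusted p = 0.0557) and Pkp1, a desmosomal plaque gene, of 2.21 (SE 0.48, edgeR adjusted p = 0.0501), and neither was called. The part of surface epithelium cells in the keratin results was not tested.

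Lists of other possible sources held few tested genes, except the corneal stroma and endothelium list. Of 12 goblet and mucous cell genes, 10 had counts and 1 was tested, Muc4, at a log2 fold change of 0.84 (SE 0.48, edgeR adjusted p = 0.284), and Tff1 and Bpifa1 were at 0. Of the cornified envelope genes 1 was tested, Tgm1, at 0.23 (SE 1.00, edgeR adjusted p = 0.890), and of the hair and sebaceous gland genes 1, Scd3, at 0.20 (SE 0.19, edgeR adjusted p = 0.490). None of the 11 lacrimal and meibomian gland genes passed the filter. The 12 genes of the corneal stroma and endothelium list summed to 5247 to 20374 CPM in 22m libraries and 10815 to 20246 CPM in 5m libraries. This sum was lowest in the right eye of 22m mouse 1, as was that of the RPE list (12487 CPM), and whether it came from corneal cells was not tested. By edgeR 0 of the 12 were called in either direction. At an unadjusted p under 0.05, 0 were higher and 2 lower, beside 16.5% and 14.6% of all genes. The 2 lower were Atp1b1 (log2 fold change -0.35, SE 0.11, edgeR adjusted p = 0.101) and Col8a2 (log2 fold change -0.53, SE 0.20, edgeR adjusted p = 0.139).

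Krt18 and Krt8, the pair of simple epithelium, were the most abundant keratins per kilobase of exon, with mouse means of 119 and 52.3 CPM per kb at 22m, against 148 and 70.1 CPM per kb at 5m. Krt18 was at 107 and 58.1, 116 and 89.5, and 368 and 286 CPM in 22m mice 1, 2 and 3 (left, then right eye), against 115 and 169, 154 and 185, and 330 and 325 CPM in 5m mice. Krt8 was at 67.3 and 31.3, 66.3 and 50.6, and 226 and 171 CPM in 22m mice, against 71.5 and 104, 93.8 and 118, and 213 and 223 CPM in 5m mice. Libraries of batch 2 stood above those of batch 1 at both ages, and the ages overlapped. The log2 fold changes of -0.59 for Krt8 (SE 0.17, edgeR adjusted p = 0.0903) and -0.48 for Krt18 (SE 0.19, edgeR adjusted p = 0.144) missed the threshold.

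Krt18 had 1.46 to 1.86 counts for each count of Krt8 in all 12 libraries. In the 9 libraries with at least 9 counts of Krt5, Krt12 had 0.194 to 2.11 counts for each count of Krt5. Krt8 shares 22.0% of its 75-base words with the pseudogene Krt8-ps, which was not analysed here. Krt8 and Krt18 moved with the RPE list: the lowest library for both, the right eye of 22m mouse 1, also had the lowest RPE sum (12487 CPM) and the highest rod sum (20343 CPM). Per 1000 CPM of the RPE list, the pair stood at 7.39, 6.50 and 10.8 CPM in 22m mice 1, 2 and 3, against 6.20, 6.40 and 9.36 CPM in 5m mice 1, 2 and 3, so that relative to these genes each 22m mouse lay above the 5m mouse of its number. These ratios carry no test, and the RPE list itself stood lower at 22m, at a median log2 fold change of -0.68. Of its 19 genes 14 were lower at an edgeR unadjusted p below 0.05, beside 14.6% of all genes. The 3 called lower were Pmel (log2 fold change -0.99, SE 0.10, edgeR adjusted p = 0.0195), Tyrp1 (log2 fold change -1.01, SE 0.12, edgeR adjusted p = 0.0226) and Tyr (log2 fold change -0.76, SE 0.16, edgeR adjusted p = 0.0479), all of pigment synthesis. Of the 19 rod genes 16 were called higher, among them Nr2e3 (log2 fold change 1.80, SE 0.18, edgeR adjusted p = 0.0195) and, with log2 fold changes of 1.76, 1.53 and 1.64, Gnat1, Sag and Cnga1.

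The other 3 simple keratins were low. Krt19 had 152 counts at 22m and 46 counts at 5m, and its mouse sums of 3.19, 2.27 and 1.26 CPM at 22m lay above those of 0.995, 0.522 and 0.569 CPM at 5m. Krt7 had 78 counts at 22m, 26 of them in the left eye of mouse 1, and 25 counts at 5m. Krt20, known from the gut lining, had 13 counts at 22m and 21 counts at 5m. Krt19 and Krt7 are made by simple epithelia and also by conjunctiva and ducts.

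Of the 8 unclassed keratins 3 passed the filter. Krt23, a type I keratin, was at 13.3 and 4.77, 15.1 and 13.2, and 31.5 and 27.6 CPM in 22m mice, against 15.1 and 24.4, 19.5 and 24.3, and 28.7 and 18.9 CPM in 5m mice, and its log2 fold change was -0.43 (SE 0.28, edgeR adjusted p = 0.340). Krt222 was at 5.10, 6.80 and 9.27 CPM (lowest, median and highest library) at 22m, against 2.98, 3.82 and 5.89 CPM at 5m, with a log2 fold change of 0.79 (SE 0.17, edgeR adjusted p = 0.0502). Krt80 was at 4.06, 5.46 and 8.52 CPM at 22m, against 2.98, 3.56 and 5.45 CPM at 5m, with a log2 fold change of 0.57 (SE 0.18, edgeR adjusted p = 0.106). In the right eye of 22m mouse 3 Krt222 and Krt80 had 58 and 53 counts, and Krt80, like Krt15, Krt6a, Krt6b, Krt4 and Krt13, was highest in the left eye of 22m mouse 1. Krt24, the most abundant unclassed keratin under the filter, had 20 counts at 22m and 22 counts at 5m.

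The remaining members were near the limit of detection. Krt78, a stratified keratin, had 28 counts at 22m and 10 counts at 5m. Krt17, of hair follicles and stressed epithelia, was chosen after its values were seen: of its 21 counts, 11 were in the left eye of 22m mouse 1 and 8 in the right eye of 22m mouse 3. The 14 hair keratins summed to 0.927 CPM at 22m and 0.654 CPM at 5m as mouse means, and none passed the filter. Of the 30 members under the filter, 12 had more than 10 counts, 14 had 2 to 10 and 4 had 1.

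Genes that work with keratins were compared from further lists. These share members with the ocular surface list, among them Pkp1, Klf5 and Sfn. Of all genes tested, 16.5% were higher and 14.6% lower at an edgeR unadjusted p under 0.05. Of 20 desmosome and keratin anchor genes tested, 0 were called higher (4 with p below 0.05 before adjustment) and 1 lower by edgeR, the tetraspanin Cd151 of hemidesmosomes (log2 fold change -0.41, SE 0.07, edgeR adjusted p = 0.0341). Of 15 other intermediate filament genes, 2 were called higher and 0 lower by edgeR (7 higher and 1 lower with p below 0.05 before adjustment), the neurofilament genes Nefh (log2 fold change 1.59, SE 0.14, edgeR adjusted p = 0.0195) and Nefl (log2 fold change 1.88, SE 0.36, edgeR adjusted p = 0.0415). Of 20 keratin regulators tested, 0 were called by edgeR, with 8 higher and 3 lower at an unadjusted p under 0.05. The 2 with the smallest p were the transcription factor Klf5 (log2 fold change -0.66, SE 0.15, edgeR adjusted p = 0.0541) and the keratinocyte 14-3-3 gene Sfn (log2 fold change 0.68, SE 0.17, edgeR adjusted p = 0.0697).

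The batch-corrected counts deposited with the raw ones changed single keratins by different amounts. In the right eye of 22m mouse 3, batch correction multiplied the raw count of Krt6b by 2.27, Krt13 by 2.25, Krt4 by 2.03 and Krt6a by 1.58, and that of Krt5 by 0.804, Krt12 by 0.554, Krt18 by 0.449 and Krt8 by 0.400. The share of all Krt12 counts that came from this library was thereby 28.3% in the batch-corrected table and 47.8% in the raw table. For Krt6b it was 25.7% in the batch-corrected table and 9.78% in the raw table.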

How the data were processed

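RNA of RPE cells from each eye was sequenced as ribosome-depleted total RNA, paired 75-base reads. The authors trimmed reads (Trimmomatic), aligned them to mm10 (HISAT2) and counted them per gene (featureCounts). Tool versions, the annotation and the strand option are not given in the sources read. The deposited tables were of 3 kinds: raw counts, estimated counts after ComBat-seq batch correction, and the batch-corrected counts divided by DESeq2 size factors, whose values (a signal per gene, per the file headers normalized counts) were used by the authors to drop genes with a mean under 20.

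For each mouse the raw counts of its eyes were added and tested with edgeR 4.0.16 in R 4.3.3 (quasi-likelihood, TMM, batch and age as terms) over the 14219 genes whose deposited normalized values averaged 20 or more, with Benjamini-Hochberg adjustment over all of them. Calls needed a log2 fold change past 0.25 in size with an adjusted p below 0.05. CPM use TMM-scaled library sizes. Same-numbered mice of the 2 ages deviated together (correlations of 0.769, 0.608 and 0.848 for mice 1, 2 and 3), in part because mouse 3 alone is batch 2, so a fit with mouse number as a block was also run. Within batch 1 the correlation was lower, at 0.339. This is a single value for mice 1 and 2, since the deviations of 2 mice from their mean mirror each other. Scripts were tested on simulated data. The p-values of this edgeR fit measure the spread over 3 mice per age that is left after the batch term. Fits by eye differ: DESeq2 on the batch-corrected table took each eye as a sample with no term for the mouse. Voom by eye used a correlation of 0.048 between the eyes of a mouse.

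Of 27179 gene IDs, 1904 had no symbol in the RefSeq table (GRCm38.p6). Promoter sequences are from RefSeq. Every keratin past the filter is named, as are the 6 most abundant under it, and for each other list up to 4 called genes of smallest adjusted p, or the 2 of smallest p where none was called. Of the rod list, 1 gene is not reported here and is left out of its sums and counts. The members, classes and lists were chosen with earlier results of these data known. Alternatives were DESeq2 1.42.0 and limma 3.58.1 (voom, and limma-trend on log2 of normalized values plus 4), other filters, normalization and batch terms, single eyes and each mouse left out.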

Additional observations from a re-analysis of the deposited data

How the results depend on the processing

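The direction of all 13 keratin fold changes was the same under all 21 alternatives. For Krt5, Krt15, Krt12, Krt6a, Krt6b, Krt4 and Krt13, which entered the test through their 22m values, this is a description and not support. The alternatives share libraries and are not separate checks, and dropping the fold threshold leaves the fold changes of the main fit unchanged. The count of keratins called higher, 4 of 13 by edgeR, was 8 with DESeq2 on mouse sums, 8 with DESeq2 on the batch-corrected table by eye, 8 with limma-trend on the normalized table and 7 of 16 with the filterByExpr filter, which let in Krt19, Krt7 and Krt1. In that fit the simple keratin Krt19 was called higher (log2 fold change 1.61, edgeR adjusted p = 0.0432). Krt7, also simple, was not (log2 fold change 1.51, edgeR adjusted p = 0.156). The count called higher was 1 with left eyes only, 0 with right eyes only, 0 without the batch term, and 0 to 4 when a mouse was left out. With the libraries that stand apart left out (added after seeing the data), it was 0 with 22m mouse 1 from its right eye alone, 2 with 22m mouse 3 from its left eye alone and 0 without both. With the replicate block (mice paired by number) it was 3, and the block changed the call of no keratin other than Krt12, Krt13 and Krt15. The count called lower, 0, was 1 with DESeq2 on mouse sums, 1 with voom by eye, 1 with DESeq2 on the batch-corrected table, 1 with limma-trend, each time Krt8, and 0 to 2 when a mouse was left out. Under the other alternatives the counts were within 1.5 times, though voom by eye, with 3 called higher, lost Krt12, Krt15 and Krt6b and added Krt222 and Krt80. Over all genes the count of calls was 769 higher and 321 lower, 1502 and 863 with DESeq2 on mouse sums, 2 and 0 without the batch term, 644 and 183 with the replicate block, 111 and 67 with left eyes, 9 and 3 with right eyes, 1572 and 1183 with voom, 1949 and 1374 with DESeq2 on batch-corrected eyes, 2122 and 1643 with limma-trend, and 1 to 1729 higher and 0 to 1266 lower when a mouse was left out. Shifts in the ratio of 22m to 5m of the summed keratins were set against the SD of the 22m mice divided by the 5m mean. That SD includes the 2 libraries and leaves out the spread of 5m mice. Without both libraries 3 ratios moved by more: 2.08 for stratified and corneal keratins (5.38 with them), 1.86 for stratified ones (4.99) and 3.14 without Krt1 and Krt10 (9.74). The ratio of corneal Krt12 fell from 8.02 to 3.65, which this measure did not mark as moved. By the deposited normalized values the stratified and corneal ratio was 5.80 and that of simple keratins 0.750. The cause of these shifts was not tested. A level of fewer than 3 counts in a library is not distinguishable from 0 at this depth.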
